A study of Mus musculus with 21 samples.

Results

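The NR4A orphan nuclear receptors were followed through exercise and recovery in mouse quadriceps muscle. The group consists of 3 genes, Nr4a1, Nr4a2 and Nr4a3, chosen by their symbols among the 53738 gene symbols of a table of transcript levels. All 3 passed the filter on low values, a mean of at least 1 TPM (a transcript level scaled by library size and transcript length) over the libraries, as did 11819 symbols in all. Bulk RNA was sequenced from wildtype male C57/Bl6 mice that were 22 to 26 weeks old when killed, with 3 libraries in each of 7 groups. Sedentary mice did no exercise. Untrained mice had no training, trained mice had run voluntarily on wheels for 12 weeks, and mice of both kinds were killed 0 h, 6 h or 72 h after a single treadmill run to exhaustion. The tissue was whole muscle with all its cell types, so fewer cells of a type cannot be told apart from less RNA per cell. Replicate 1 of the untrained 0 h group had the same values throughout as replicate 1 of the trained 0 h group, so 20 distinct libraries remain. This library counts once in the correlations between genes. Comparisons with sedentary muscle and between times within a training state kept both columns. There it counts in each 0 h group, although it can belong to only 1 of them, and enters the estimate of the spread with both columns. The shared library was left out of both groups where trained and untrained muscle at 0 h were compared with each other, directly or as the start of the recovery.

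NR4A proteins are transcription factors of the nuclear receptor superfamily for which no classical hormone is needed, because bulky side chains fill the pocket that would hold a ligand. Their activity therefore follows how much of them is made, and their genes belong to the immediate early genes, which are transcribed within minutes of a calcium, cAMP or stress signal without new protein synthesis. NR4A1 (Nur77), NR4A2 (Nurr1) and NR4A3 (NOR1) share a DNA-binding domain that reads the NBRE element as a monomer, while NR4A1 and NR4A2 can also pair with retinoid X receptors. In skeletal muscle they are known as genes of the beta-adrenergic and contraction response and have been linked to genes of glucose use and oxidative metabolism.

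The 3 genes lie on different chromosomes (GRCm39). Nr4a1 spans chr15:101151980-101172681 on the plus strand with 7 exons in its canonical transcript, Nr4a2 spans chr2:56996842-57014331 on the minus strand with 8 exons, and Nr4a3 spans chr4:48045153-48086447 on the plus strand with 8 exons. Nr4a1 overlaps 3 long non-coding RNA genes, 2 of them on the opposite strand, and Nr4a3 overlaps 1 on the opposite strand. The library kit does not mark strand, so reads of such partners cannot be told apart.

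The promoter windows are shown because all 3 genes moved together at 0 h. Each runs from 250 bases before to 50 bases after the RefSeq start site. They were taken from RefSeq (GRCm38.p6), and each matched GRCm39 exactly once. The 250 bases before the start site are printed, which lie in GRCm39 at chr15:101164477-101164726 (plus strand) for Nr4a1, chr2:57014016-57014265 (minus strand) for Nr4a2 and chr4:48045055-48045304 (plus strand) for Nr4a3. The RefSeq start lies 67 bp downstream of the start of the canonical transcript for Nr4a1 and 152 bp downstream of it for Nr4a3, but at -7769 bp, that is upstream of it, for Nr4a2. For Nr4a1 and Nr4a2 it coincides with the start of another annotated transcript of the gene, and for Nr4a3 the nearest annotated start lies 74 bp away. Capitals mark TGACG, the core of the cyclic AMP response element (CRE) that CREB and its relatives bind, in either orientation (CGTCA on the strand shown when the match is on the other strand).
Nr4a1: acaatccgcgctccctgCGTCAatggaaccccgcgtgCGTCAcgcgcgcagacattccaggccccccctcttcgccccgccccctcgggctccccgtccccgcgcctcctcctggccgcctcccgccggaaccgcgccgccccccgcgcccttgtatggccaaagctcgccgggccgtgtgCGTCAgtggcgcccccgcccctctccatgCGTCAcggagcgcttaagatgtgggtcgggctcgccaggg
Nr4a2: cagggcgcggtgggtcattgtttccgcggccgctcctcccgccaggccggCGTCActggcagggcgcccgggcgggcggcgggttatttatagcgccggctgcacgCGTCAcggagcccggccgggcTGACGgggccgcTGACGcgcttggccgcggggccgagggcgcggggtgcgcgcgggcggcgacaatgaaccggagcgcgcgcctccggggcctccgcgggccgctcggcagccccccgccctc
Nr4a3: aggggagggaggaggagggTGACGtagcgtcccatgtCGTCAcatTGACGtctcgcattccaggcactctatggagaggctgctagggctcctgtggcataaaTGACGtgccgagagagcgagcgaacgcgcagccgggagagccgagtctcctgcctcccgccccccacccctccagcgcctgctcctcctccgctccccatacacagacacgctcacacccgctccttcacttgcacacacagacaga
Each window held 4 matches to TGACG, all before the start site. Of 32851 such windows in the mouse table, 20.8% held at least 1 match and 0.231% (76 windows) held at least 4. The windows are rich in G and C, at 72.3%, 81.7% and 64.7% for Nr4a1, Nr4a2 and Nr4a3 against a median of 52.7% over all windows. Among the 6011 windows at least as GC-rich as the lowest of the 3, 0.532% held 4 or more. The 4 matches of Nr4a1 all lay on the other strand, and with the start site counted as 0 the nearest began at base -40. In Nr4a2 the nearest began at base -111 and in Nr4a3 at base -147. The full palindrome TGACGTCA (1.79% of all windows), the AP-1 site TGANTCA (7.81%), the NBRE AAAGGTCA (1.51%) and the CArG box (1.63%) had 0 matches in the 3 windows, searched on both strands. Nr4a2 alone held a TATAAA match (13.6% of windows), which lay within its match to the MEF2 site (3.19%). A match in these letters is a description of sequence, and binding was not measured.

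**Figure D1:**
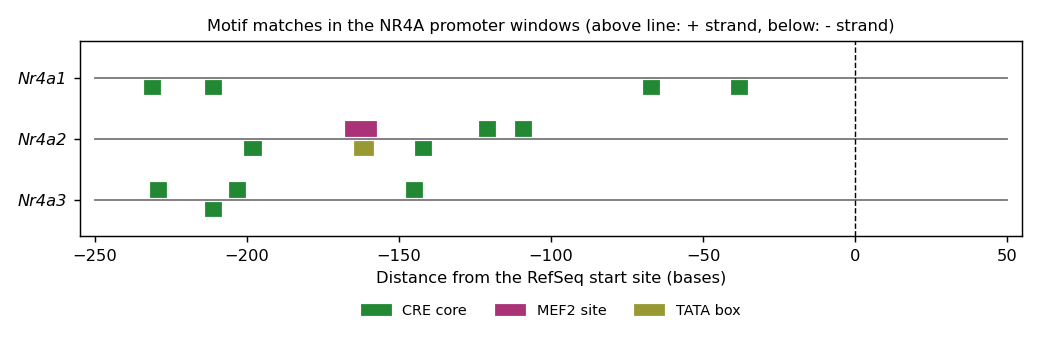
Motif matches in the promoter windows of the 3 NR4A genes, plotted by distance in bases from the RefSeq start site (dashed line), with boxes above the line for matches on the strand of the gene and below it for the opposite strand. Each gene holds 4 CRE cores, and the single core nearest to a start site is in Nr4a1, at base -40.

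The libraries were labelled quadriceps, and all 7 myofibre markers, such as Acta1 and Ckm, were detected, with a summed level of 48351 to 66893 TPM per library. The 6 endothelial markers summed to 41.5 to 64.3 TPM, the 6 macrophage markers to 11.3 to 32.0 TPM and the 5 fibro-adipogenic markers to 138 to 377 TPM. The 4 satellite cell, 5 neutrophil and 3 T cell markers summed to no more than 1.93 TPM each and none of them passed the filter, while none of the markers was at 0 in every library. RNA of the mitochondrial genome made up 37.7 to 48.0% of a library. At 0 h its share was 37.7 to 40.6%, below the 42.2 to 46.9% of sedentary muscle, and the myofibre markers stood higher, at 60572 to 66893 against 49804 to 58530 TPM. Of other cell types, 1 of 6 endothelial markers was called lower at 0 h in both states (Kdr, -0.66 in untrained and -0.59 in trained muscle) and 1 of 4 smooth muscle and pericyte markers in untrained muscle (Pdgfrb, -0.65). The part of these shifts in the results at 0 h was not tested. The median log2 difference of all tested genes from sedentary muscle was 0.10 in untrained and 0.13 in trained muscle at 0 h.

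Nr4a1 was the NR4A gene with the highest level in every library. It measured 23.1, 20.7 and 30.9 TPM in the sedentary libraries. At 0 h it measured 169, 143 and 171 TPM in the untrained and 169, 200 and 183 TPM in the trained group, the first value of each being the shared library. All 0 h libraries thus stood far above all sedentary libraries, and Nr4a1 moved from rank 1565 to 2136 among all symbols to rank 331 to 448. At 6 h it measured 18.5, 20.02 and 31.2 TPM in the untrained and 10.7, 15.5 and 20.1 TPM in the trained group. Untrained 6 h libraries lay on both sides of the sedentary range, while the 3 trained ones lay below it. At 72 h the values were 28.2, 23.4 and 24.2 TPM in the untrained and 29.4, 31.4 and 35.1 TPM in the trained group, which placed the 3 trained libraries above the 3 untrained ones. Ordered by mean, Nr4a1 was at 184 TPM ± 15.5 (SD, n = 3) in trained and 161 TPM ± 15.6 in untrained muscle at 0 h, 32.0 TPM ± 2.86 in trained muscle at 72 h, 25.3 TPM ± 2.596 in untrained muscle at 72 h, 24.9 TPM ± 5.34 in sedentary muscle, 23.2 TPM ± 6.92 in untrained muscle at 6 h and 15.4 TPM ± 4.69 in trained muscle at 6 h. Neighbours in this order overlapped except for untrained 0 h against trained 72 h and trained 72 h against untrained 72 h.

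Nr4a2 was low outside the 0 h groups, at 0.0857 to 4.95 TPM per library. Its sedentary libraries measured 0.0857, 0.147 and 1.98 TPM, so 1 library was more than 10 times as high as the other 2. At 0 h the values rose to 70.6, 88.5 and 84.1 TPM in the untrained and 70.6, 101 and 101 TPM in the trained group. All of these stood above every other library of the study. At 6 h untrained muscle held 0.355, 0.746 and 4.95 TPM and trained muscle 1.42, 1.48 and 0.213 TPM. At 72 h the values were 1.89, 1.72 and 1.31 TPM in the untrained and 4.004, 2.63 and 0.212 TPM in the trained group. Outside 0 h the 5 groups overlapped each other, with means from 0.737 TPM ± 1.07 (SD, n = 3) in sedentary to 2.28 TPM ± 1.92 in trained muscle at 72 h. Sedentary, untrained 6 h and trained 72 h libraries each spread over a wider range than these means.

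Nr4a3 had the lowest level of the 3 at 0 h and a different course. The sedentary libraries measured 0.0705, 0.396 and 0.115 TPM. At 0 h untrained muscle held 4.41, 5.27 and 5.18 TPM and trained muscle 4.41, 6.91 and 5.85 TPM, all above the sedentary range. At 6 h the untrained libraries stood at 6.03, 12.8 and 6.65 TPM, all above the untrained 0 h libraries, whereas the trained libraries stood at 2.76, 1.34 and 1.63 TPM, between the sedentary and the 0 h values. At 72 h the values were 0.0730, 0.0795 and 0.0713 TPM in the untrained and 0.171, 0.110 and 0.0724 TPM in the trained group. Ordered by mean, untrained muscle at 6 h (8.49 TPM ± 3.72, SD, n = 3) came first, followed by trained (5.72 TPM ± 1.25) and untrained (4.95 TPM ± 0.473) muscle at 0 h, trained muscle at 6 h (1.91 TPM ± 0.752), sedentary muscle (0.194 TPM ± 0.177), and trained (0.118 TPM ± 0.0496) and untrained (0.0746 TPM ± 0.00430) muscle at 72 h. The first 3 of these overlapped as neighbours, as did the last 3, and trained muscle at 6 h overlapped neither neighbour.

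**Figure D2:**
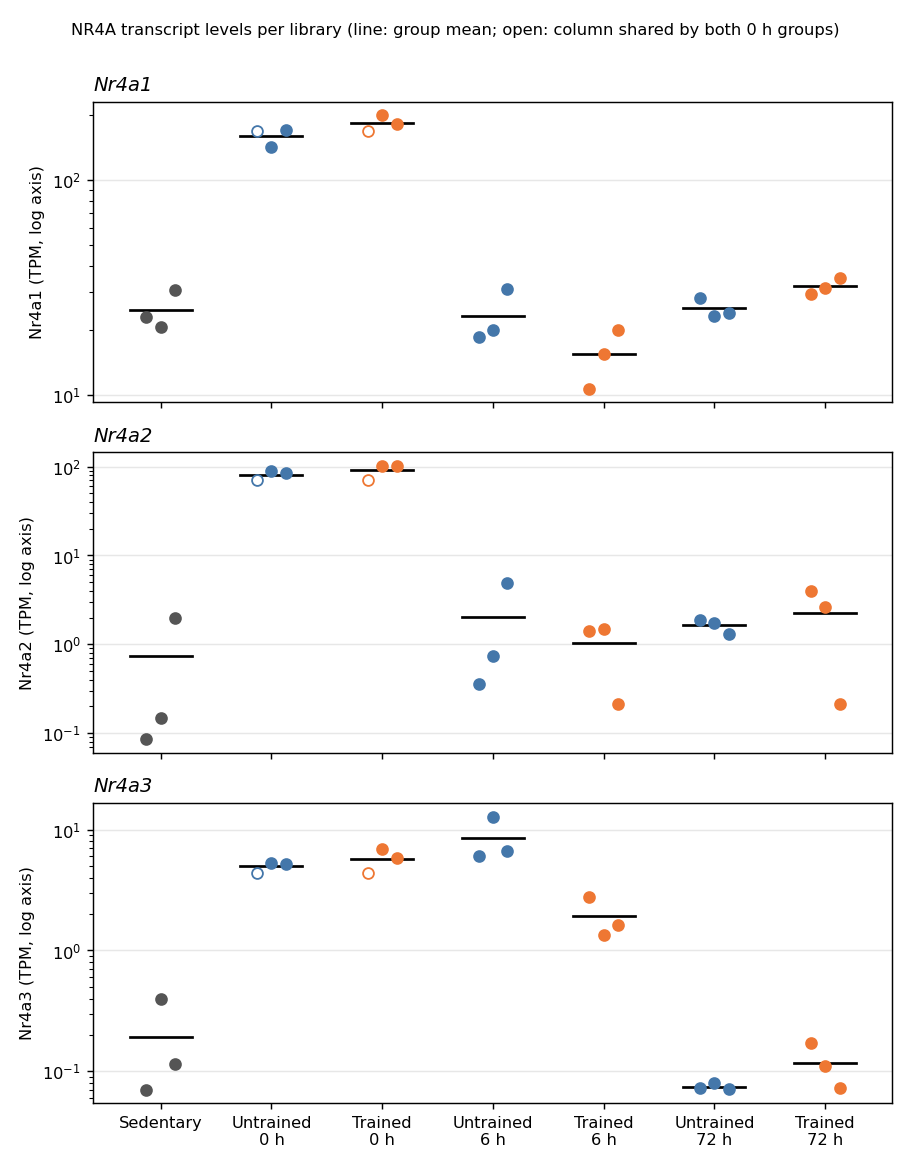
Levels of Nr4a1, Nr4a2 and Nr4a3 in TPM (log axis) in each library of the 7 groups, with a line at the group mean and open circles for the library that both 0 h groups share. Nr4a1 and Nr4a2 are high at 0 h alone, while Nr4a3 is highest in untrained muscle at 6 h (8.49 TPM on average) and at 1.91 TPM in trained muscle at the same time.

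The first comparison asked which receptors were higher right after a single exhausting run than in sedentary muscle. No trained group without the run was sampled. Each comparison of trained with sedentary muscle, here and below, thus holds both the run and the training. Their separate parts were not tested. All 3 members were called higher than in sedentary muscle at 0 h, in untrained as in trained mice. The call required a difference of at least 1.5-fold and, by limma with Benjamini-Hochberg adjustment over all 11819 genes, an adjusted p under 0.05, which 2.97% of tested genes passed as higher in untrained and 3.39% in trained muscle. On the log2(TPM + 0.5) scale, which understates the change of low genes, Nr4a2 rose most, by 6.37 (SE 0.72, adjusted p = 2.5e-05) in untrained and 6.53 (adjusted p = 1.9e-05) in trained muscle. These were rank 3 and rank 1 among all tested genes. Nr4a3 rose by 3.00 (SE 0.25, adjusted p = 1.4e-06) and 3.17 (adjusted p = 6.2e-07). Nr4a1 rose by 2.69 (SE 0.21, adjusted p = 5.6e-07) and 2.88 (adjusted p = 2.4e-07). The libraries of the 2 groups did not overlap for any member, as was true of 22.9% of genes that were higher in untrained and 26.3% in trained muscle. The ratio of mean TPM to sedentary muscle was 6.47 and 7.39 for Nr4a1, 110 and 123 for Nr4a2, and 25.5 and 29.5 for Nr4a3. For Nr4a2 and Nr4a3 the denominator was under 1 TPM, and no read counts were at hand to give its error. Both comparisons share the sedentary libraries and the shared 0 h library. The balance of all calls depended on the scaling, with 351 genes higher and 73 lower in untrained and 401 and 41 in trained muscle, but 257 and 116 and 262 and 87 when TPM was rescaled without the mitochondrial genome and the 10 highest genes. The 3 members kept their calls under that scaling.

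**Figure D3:**
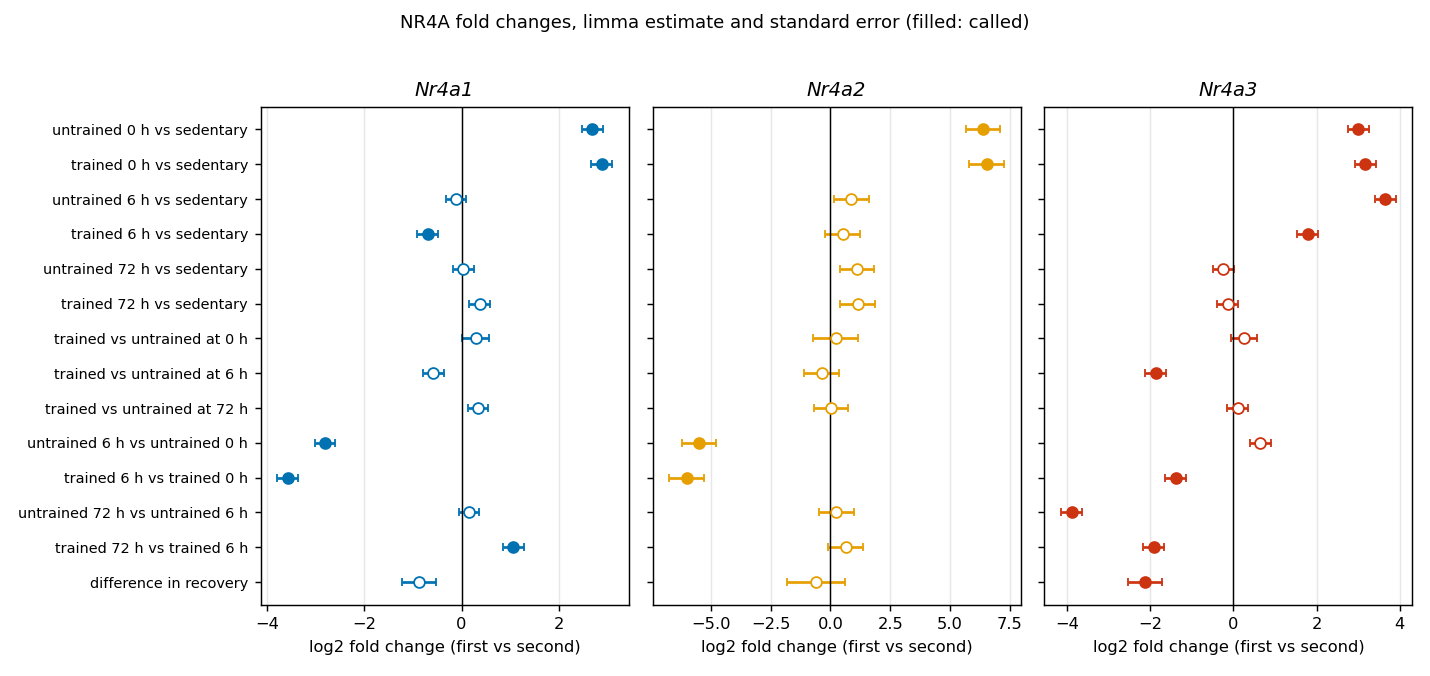
Log2 fold change (x axis, first group against second) with its standard error for each NR4A gene in the 14 comparisons, from limma on log2(TPM + 0.5). Filled points passed the call. All 3 genes rise at 0 h, and Nr4a3 alone stays higher than in sedentary muscle at 6 h, by 3.65 in untrained and 1.78 in trained muscle.

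At 6 h the members had separated. Nr4a3 was still called higher than in sedentary muscle, by 3.65 (SE 0.25, adjusted p = 1.9e-07) in untrained and 1.78 (SE 0.25, adjusted p = 0.00046) in trained muscle. Of all tested genes 3.53% were called higher in untrained and 2.41% in trained muscle, and for 11.7% and 13.9% the libraries lay wholly above the sedentary ones, as they did for Nr4a3. Nr4a1 differed by -0.12 (adjusted p = 0.83) in untrained muscle. In trained muscle it was called lower, as were 1.44% of genes, by -0.69 (SE 0.21, adjusted p = 0.046). All 3 trained libraries lay below the sedentary ones, which held for 15% of genes. This was a call that was lost without sedentary replicate 1 (adjusted p = 0.087) or 3 (0.17) and without trained 6 h replicate 1 (0.21) or 2 (0.081). Of the 5 fibro-adipogenic markers 2 were called lower in the same comparison (Col1a1, -0.91, adjusted p = 0.048, and Col3a1, -1.35, adjusted p = 0.026). The others were not called, and the median over the 5 was -0.40. The summed level of the 5 was 225 to 258 TPM in trained muscle at 6 h and 233 to 273 TPM in sedentary muscle, so the ranges overlapped. The part of these markers in the Nr4a1 difference was not tested. Nr4a2 had differences of 0.88 (adjusted p = 0.56) and 0.51 (adjusted p = 0.72), whose 95% intervals reached from -0.66 to 2.41 and from -1.03 to 2.04. The low values of this gene varied among libraries of the same group, and a change within these intervals cannot be told from none.

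Set against 0 h, Nr4a1 and Nr4a2 had fallen in both training states by 6 h. Nr4a1 fell by 2.802 in untrained (adjusted p = 5.9e-07) and fell by 3.57 in trained muscle (adjusted p = 2.4e-08). Nr4a2 fell by 5.50 (adjusted p = 0.00012) and fell by 6.02 (adjusted p = 4.1e-05), rank 2 and rank 3 from the lowest among all tested genes. Nr4a3 fell by 1.39 in trained muscle (adjusted p = 0.0013). In untrained muscle its difference was 0.65 (95% interval 0.11 to 1.19, adjusted p = 0.11), not called, although the 3 libraries at 6 h all lay above the 3 at 0 h, as did those of 6.71% of genes. Thus 2 members were called lower in untrained muscle (2.6% of genes) and 3 in trained muscle (4.95% of genes). These background shares depended on the scaling. In trained muscle 585 genes were lower and 179 higher, against 341 and 312 with median-of-ratios scaling and 328 and 406 when rescaled without the mitochondrial genome and the 10 highest genes. In untrained muscle 307 were lower and 241 higher, against 238 and 324 and 253 and 340. The 5 calls of the members were kept under both scalings. The mitochondrial share was 37.7 to 40.6% at 0 h, 40.6 to 43.7% in untrained and 45.7 to 47.0% in trained muscle at 6 h. Of the smooth muscle and pericyte markers 1 of 4 was called lower (Acta2) and 1 higher (Pdgfrb) in both states, and of the fibro-adipogenic markers 2 of 5 were called lower in trained muscle (Col1a1 and Col3a1). The part of these in the falls was not tested.

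Expressed as a share of the rise over sedentary muscle that was present at 0 h, Nr4a1 at 6 h stood at -1.22% ± 5.08 (SD, n = 3) in untrained and -5.94% ± 2.95 in trained muscle. Nr4a2 stood at 1.59% ± 3.17 and 0.331% ± 0.791. Both genes had returned to the sedentary mean within the spread of the libraries or below it. For trained muscle too, this is the mean of mice without training, because no trained group without the run was sampled. Nr4a3 stood at 174% ± 78.2 in untrained muscle, with the 3 libraries between 123% and 264%, and at 31.1% ± 13.6 in trained muscle, with the libraries between 20.7% and 46.5%. Without the shared library in the 0 h mean, these were 165% ± 74.0 and 27.8% ± 12.2.

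The study asked how training changes the response to a run to exhaustion. Each run ended at exhaustion, so its length and speed were not held equal, and the exercise done and the training cannot be told apart. At 0 h, with the shared library left out (n = 2 a group), no member was called between trained and untrained muscle by limma. The log2 differences were 0.29 (95% interval -0.30 to 0.87) for Nr4a1, 0.23 (-1.80 to 2.25) for Nr4a2 and 0.26 (-0.41 to 0.93) for Nr4a3, each with an adjusted p of 1. The spread behind each interval was estimated over all groups of the fit. For Nr4a2 it thus includes the low and varied libraries outside 0 h. Its means at 0 h were 101 TPM ± 0.229 (SD, n = 2) in trained and 86.3 TPM ± 3.13 in untrained muscle. Both trained libraries lay above both untrained ones for each of the 3 members, as for 24.1% of tested genes. No gene was called at all in this comparison (0.0%), although 528 genes had an unadjusted p under 0.05, none of them a member.

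At 6 h Nr4a3 was lower in the trained group, with a log2 difference of -1.87 (SE 0.25, adjusted p = 0.00047), with mean levels of 1.91 and 8.49 TPM. All 3 trained libraries lay below all 3 untrained ones, as did those of 11.5% of genes, and 1.46% of genes were called lower. Nr4a1 differed by -0.58 (95% interval -1.03 to -0.13, adjusted p = 0.14) and Nr4a2 by -0.37 (-1.90 to 1.17, adjusted p = 0.85), neither of which was called. When only the 2 groups at 6 h entered the fit, Nr4a3 kept its difference but not its call (adjusted p = 0.18). Cd68 and Csf1r, 2 of the 5 tested macrophage markers, went the same way as Nr4a3. Both were called higher in untrained muscle at 6 h than in sedentary muscle. In trained muscle both were called lower than in the untrained group (Cd68 by -1.47, adjusted p = 0.00047). None of the other tested macrophage markers was called in either comparison. At 6 h the 6 listed macrophage markers summed to 15.4 to 32.0 TPM in the untrained and 11.3 to 16.2 TPM in the trained libraries. The untrained range overlapped the trained one and the 13.5 to 15.4 TPM of sedentary libraries. Their part in the Nr4a3 difference was not tested. Of the 5 tested macrophage markers 1 was called higher at 72 h in untrained than in sedentary muscle, with a median of 0.35 over the 5. Cd68 was then at 4.71 TPM ± 1.06 (SD, n = 3) against 1.29 TPM ± 0.288 in sedentary muscle. Nr4a3 was at 0.0713 to 0.0795 TPM in untrained muscle at 72 h. The bearing of these values on the difference at 6 h was not tested. The mitochondrial share also separated the groups at 6 h, at 45.7 to 47.0% in trained and 40.6 to 43.7% in untrained libraries. Rescaled without the mitochondrial genome and the 10 highest genes, Nr4a3 kept its call, while all calls went from 66 higher and 172 lower to 130 and 140.

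The difference in recovery itself, that is the trained change from 0 h to 6 h less the untrained change, was tested without the shared library. For Nr4a3 it was -2.13, lower in trained muscle (SE 0.40, adjusted p = 0.042), and 0.279% of genes were called in that direction (33 lower and 4 higher, against 10 and 8 when rescaled without the mitochondrial genome and the 10 highest genes). Its call was not firm. It was lost when any of 8 of the 10 libraries was left out, namely either remaining 0 h library of either training state and replicates 2 or 3 at 6 h of either state, with adjusted p up to 0.19, while the difference stayed between -2.37 and -1.81. Nr4a1 had a difference in recovery of -0.87 (95% interval -1.62 to -0.11, adjusted p = 0.39) and Nr4a2 of -0.60 (-3.21 to 2.02, adjusted p = 0.89).

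By 72 h no member was called against sedentary muscle by limma in untrained or trained mice, where 0.00846% and 0.169% of genes were called and no member had an unadjusted p under 0.05. The differences were 0.04 and 0.37 for Nr4a1, 1.12 and 1.14 for Nr4a2, and -0.24 and -0.14 for Nr4a3. Between 6 h and 72 h Nr4a3 fell by 3.89 in untrained (adjusted p = 1.3e-07) and fell by 1.92 in trained muscle (adjusted p = 0.0002), where 2.83% and 2.52% of genes were called lower. Nr4a1 rose by 1.07 in trained muscle over the same interval (SE 0.21, adjusted p = 0.0041, 0.956% of genes called higher), from below the sedentary range to 32.0 TPM. Trained and untrained muscle at 72 h did not differ in a called way for any member (0.245% of genes called), with 0.33 (95% interval -0.11 to 0.78) for Nr4a1. The 3 trained libraries lay above the 3 untrained ones for Nr4a1, as for 3.93% of genes. No member had an unadjusted p under 0.05 there. The mitochondrial share was 46.7 to 48.0% in trained and 42.3 to 44.3% in untrained muscle at 72 h, and its part was not tested.

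TPM is scaled by transcript length, so the 3 levels can be set beside each other as shares of one pool. The summed NR4A level was 21.2 to 33.0 TPM in sedentary libraries, 237 to 308 TPM at 0 h, 24.9 to 42.8 TPM after 6 h without and 14.9 to 21.9 TPM with training, and 25.2 to 35.4 TPM at 72 h. Nr4a1 made up 93.7 to 99.3% of it in sedentary muscle. At 0 h Nr4a2 held 28.9 to 37.3% of the pool and Nr4a3 1.81 to 2.24%. At 6 h Nr4a3 held 15.6 to 38.1% in untrained and 7.29 to 18.6% in trained muscle, and Nr4a2 0.969 to 11.6%. At 72 h Nr4a1 again held 87.6% or more. The summed level at 6 h thus overlapped the sedentary range in untrained muscle. In trained muscle the library at 21.9 TPM lay within that range, while those at 14.9 and 18.4 TPM lay below it. The Nr4a3 share at 6 h lay above the 0.303 to 1.87% of sedentary muscle in every library of both states. At 72 h it was 0.242 to 0.316% in untrained and 0.205 to 0.508% in trained muscle.

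The shift in make-up from 0 h to 6 h was tested on log2 ratios, with the libraries exchanged between 0 h and 6 h within each training state and the shared library left out. From 0 h to 6 h the Nr4a3 to Nr4a1 ratio changed by 2.71, the Nr4a2 to Nr4a1 ratio by -2.69 and the Nr4a3 to Nr4a2 ratio by 5.40 (two-sided exact permutation test, adjusted p = 0.01 for each of 3 ratios). For each ratio 0.01 is the smallest p that the 100 arrangements can give. The Nr4a3 to Nr4a2 ratio follows from the other 2 ratios, so the 3 tests are not independent. They use libraries in which the changes of the single genes were already given, and so are not separate evidence. The Nr4a3 to Nr4a1 log2 ratio went from -4.78 ± 0.20 (SD, n = 2) to -1.44 ± 0.76 (n = 3) in untrained and from -4.81 ± 0.07 to -2.72 ± 0.82 in trained muscle. The Nr4a2 to Nr4a1 ratio had an adjusted p of 0.05 when either trained 0 h replicate 2 or 3 was left out.

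**Figure D4:**
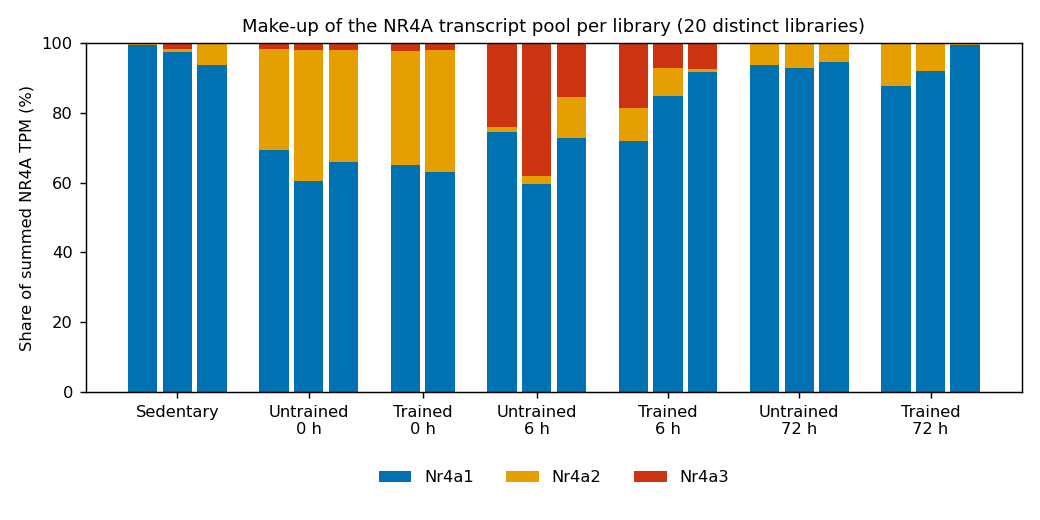
Share of each gene in the summed NR4A TPM (y axis, percent) of the 20 distinct libraries, grouped along the x axis by training state and time, with the shared 0 h library drawn under untrained 0 h. Nr4a2 takes 28.9 to 37.3% at 0 h, and Nr4a3 takes 15.6 to 38.1% in untrained muscle at 6 h.

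The response was then set beside the rest of the nuclear receptor family, of which 30 of 46 other genes passed the filter. In sedentary muscle Nr4a1 held rank 6 of 33 tested receptors by mean TPM, with Nr4a2 at rank 32 and Nr4a3 at rank 33. Receptors with a mean under 1 TPM over the libraries were not ranked. Nr4a2 (0.737 TPM) and Nr4a3 (0.194 TPM) averaged under 1 TPM in sedentary muscle and passed the filter through exercised libraries. Their low sedentary ranks thus follow in part from the filter. At 0 h Nr4a1 and Nr4a2 held ranks 1 and 2 in both training states, and Nr4a3 rank 19 in untrained and 16 in trained muscle. None of the 30 others was called higher at 0 h (5 in untrained and 10 in trained muscle had an unadjusted p under 0.05 in either direction, limma). Of the others, Esrrg, an orphan receptor tied to oxidative genes, was called lower in untrained (-0.59, adjusted p = 0.018) and Nr1d1, the clock repressor REV-ERB alpha, lower in trained muscle (-0.70, adjusted p = 0.012), where 0.618% and 0.347% of all genes were called lower. The median of the 30 was 0.08 and 0.17 against 0.10 and 0.13 over all genes.

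At 6 h other receptors were called too. Nr1d1 (-0.94, adjusted p = 0.0013) and Nr3c2, the mineralocorticoid receptor (-0.98, adjusted p = 0.013), were called lower in untrained muscle (0.888% of all genes) and none was called higher, although 6 of the 30 had an unadjusted p under 0.05 in either direction. In trained muscle Esrrg (1.41, adjusted p = 3.1e-05), Ppara, a receptor for fatty acids (1.26, adjusted p = 0.0024), and Esrrb (0.80, adjusted p = 0.00047) were called higher, and Nr1d1 (-2.02), Nr3c2 (-1.08) and Thra, a thyroid hormone receptor (-0.69), lower. Nr4a3 had the largest rise of the 33 in both states at that time and the lowest value of the 33 between trained and untrained muscle. Between trained and untrained muscle at 6 h, 3 of the 30 were called higher (Ppara, Esrrg and Esrrb, 0.558% of all genes) and 2 lower (Nr1d1 and Esr1). The retinoid X receptors, which can pair with NR4A1 and NR4A2, had 0 of 3 called in any comparison by limma, with 1 in untrained and 2 in trained muscle at an unadjusted p under 0.05 at 0 h. In sedentary muscle they measured 26.2 TPM ± 2.37 (Rxra, SD, n = 3), 12.1 TPM ± 0.912 (Rxrb) and 22.1 TPM ± 0.948 (Rxrg), and at 0 h in untrained muscle they differed by 0.08, 0.12 and 0.35. Among them Rxrb reached an adjusted p of 0.042 in trained muscle at 0 h, with a difference of 0.25 that lies under the 1.5-fold limit.

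**Figure D5:**
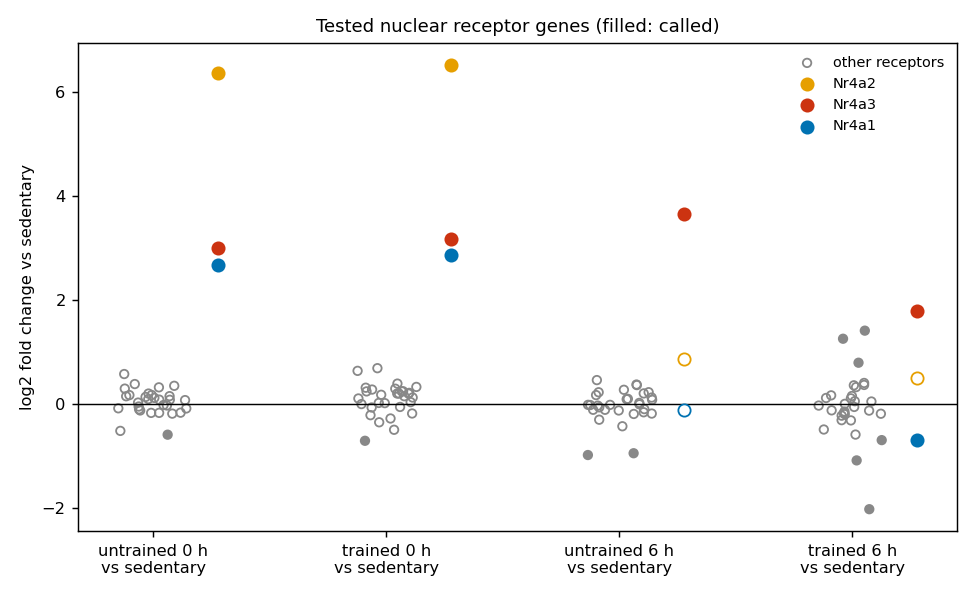
Log2 fold change against sedentary muscle (y axis) of the 33 tested nuclear receptor genes in 4 groups, with the 30 others in grey, the NR4A genes in colour and filled points for calls. At 0 h the NR4A genes lie at 2.69 or more while no other receptor is called higher, and at 6 h Nr4a3 lies above all others.

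Other immediate early genes were compared as a group of 15, of which 13 were tested. At 0 h, 12 of 13 were called higher in both training states, with a median of 3.24 in untrained and 3.56 in trained muscle. Nr4a1 and Nr4a3 stood below these medians on the log2 scale used here, which understates the change of low genes. Nr4a3 averaged 0.194 TPM in sedentary muscle. Its ratio of mean TPM to sedentary muscle was 25.5 in untrained and 29.5 in trained muscle at 0 h. Its place among these genes on another scale was not tested. Fos (5.75 and 6.09), Egr1 (4.93 and 5.23), Atf3 (4.69 and 4.84) and Btg2 (3.81 and 4.51) rose most. Fos and Atf3 encode partners of AP-1 type dimers, Egr1 a zinc finger factor and Btg2 an antiproliferative protein. Nr4a2 changed by more than any of the 13. The gene that was not called was Ppargc1a, the coactivator PGC-1 alpha, at 0.05 and 0.11, which is named here after its values were seen.

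At 6 h 9 of these 13 were called higher in untrained and 4 in trained muscle, each count including Ppargc1a (medians 1.00 and 0.02, all genes 0.01 and -0.01), and 6 were lower in trained than in untrained muscle, none higher. Atf3 (-3.38, adjusted p = 0.0012), Fos (-2.93, adjusted p = 0.0018), Egr1 (-2.41, adjusted p = 0.016) and Btg2 (-1.41, adjusted p = 0.0088) had the largest differences. Nr4a3 had the same direction. Atf3 was at 109 TPM ± 40.0 (SD, n = 3) without and 14.3 TPM ± 15.8 with training, and its difference between 6 h and 0 h in untrained muscle was 1.60 (adjusted p = 0.056), not called. Ppargc1a, not called at 0 h, was called higher in both states at 6 h, by 2.65 and 3.15. Of the 13, only Btg2 was called for the difference in recovery (-2.46, adjusted p = 0.036).

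Of 22 regulators known to act upstream of NR4A genes (CREB family members and their coactivators, CaM kinases, MEF2 factors, class IIa histone deacetylases, NFAT factors and SRF), 2 were called higher at 0 h in either state. These were Sik1, a kinase that is itself a CREB target and restrains CREB coactivators (3.48 and 3.72), and Crem, which encodes CREB relatives including the repressor ICER (1.10 and 1.23). Both also stand in the list of immediate early genes. At 6 h Crem remained called higher in untrained (1.00) and trained muscle (1.30), Sik1 in untrained muscle (0.94), and Hdac9 was called lower in trained muscle (-0.80). The median of the 22 at 0 h was 0.12 and 0.18, close to that of all genes. These are transcript levels, and phosphorylation or nuclear transport, by which most of these regulators act, was not measured.

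Genes known from other work to respond to NR4A factors in muscle were looked at next. Of all 11819 tested genes, 424 were called at 0 h in untrained and 442 in trained muscle. In lists as short as these, 0 calls lie near that share. By limma, 2860 and 3217 of all tested genes had an unadjusted p under 0.05. Among 10 genes of glucose use, 0 were called at 0 h in either state by limma (median 0.20 and 0.17), with 4 and 3 at an unadjusted p under 0.05. At 6 h Hk2, the muscle hexokinase, was called higher in untrained (1.36, adjusted p = 0.0011) and trained muscle (1.44, adjusted p = 0.00089), from 49.2 TPM ± 2.15 (SD, n = 3) in sedentary to 129 TPM ± 25.2 and 135 TPM ± 15.5. Bpgm, an enzyme of a side branch of glycolysis, was called lower in trained muscle (-0.66). Among 13 genes of lipid use and mitochondria, 0 were called at 0 h by limma (median 0.19 and 0.22), with 5 and 6 at an unadjusted p under 0.05. At 6 h Ucp3 (1.39), a mitochondrial carrier, Lpin1 (0.67), a phosphatidate phosphatase, and Foxo1 (0.67), a fasting-response factor, were called higher in untrained and Lpin1 (0.91) in trained muscle. The medians at 6 h were -0.03 and -0.12 for the glucose list and 0.11 and 0.25 for the lipid list. Between trained and untrained muscle at 6 h 0 of the 10 and 0 of the 13 were called by limma, with 3 and 4 at an unadjusted p under 0.05. Of all 11819 tested genes, 238 were called in that comparison and 2166 had an unadjusted p under 0.05.

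The genes most like each member were ranked by Pearson r of log2(TPM + 0.5) over the 20 distinct libraries. Libraries of the same group share their condition, so these are not independent points, and r is given as a description. Nr4a1 was most like Fosl2 (0.974), Klf2 (0.971), Klf4 (0.970), Slc25a25 (0.969) and Apold1 (0.963). Fosl2 is an AP-1 subunit, Klf2 and Klf4 are Kruppel-like factors and Slc25a25 is a calcium-sensitive mitochondrial ATP-Mg carrier. Like Nr4a1, Slc25a25 was higher at 0 h than in sedentary muscle or at 6 h. The Slc25a25 mean was 3.37 TPM in sedentary muscle. It was 143 TPM in the untrained and 148 TPM in the trained group at 0 h, and 5.07 and 2.42 TPM at 6 h. Nr4a2 was most like Tra2a (0.967), Cttnbp2nl (0.965), Slc25a25 (0.964), Fosl2 (0.961) and Pxdc1 (0.958), so Fosl2 and Slc25a25 stood in both lists.

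Nr4a3 kept other company. It was most like the heat shock genes Hspa1a (0.974), Hsp90aa1 (0.969) and Hspa1b (0.964), followed by Atf3 (0.963) and Abra (0.961), an actin-binding activator of SRF. Hspa1a and Hspa1b are near-identical copies between which reads can be split, so their separate levels are uncertain. Hspa1a averaged 0.921 TPM in sedentary muscle. At 0 h its means were 72.2 TPM without and 49.4 TPM with training, and at 6 h 116 TPM and 5.63 TPM. Atf3 averaged 34.0 and 109 TPM in untrained muscle at 0 h and 6 h and 39.4 and 14.3 TPM in trained muscle. In each of the 5 the mean at 6 h was above that at 0 h in untrained and below it in trained muscle. The 5 were chosen in these same libraries for their likeness to Nr4a3, so this shared course follows in part from the choice. Among the members, Nr4a1 and Nr4a2 had an r of 0.930, and Nr4a3 had 0.437 with Nr4a1 and 0.535 with Nr4a2.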

How the data were processed

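Bulk RNA-seq of quadriceps muscle was analysed in 7 groups of 3 libraries. Per the labels and the study's methods, the authors prepared libraries with TruSeq RNA v2, aligned reads with STAR 2.7.9 to GRCm39 and quantified transcripts with salmon 1.5.0. The annotation version is not given in the sources used here. The deposited values are TPM, as given by the authors, with 1 row per gene symbol and 1 column per library. TPM keeps no read depth, so the error from counting is unknown and no count model could be used. The columns summed to 997304 to 997921, and 11048 to 11890 symbols reached 1 TPM in a library.

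The members and all gene lists were chosen with earlier results of these data known, so counts over a list are descriptions. TPM was transformed to log2(TPM + 0.5) and genes with a mean under 1 TPM were left out. A linear model with a variance trend was fitted with limma 3.58.1 (R 4.3.3) over the 7 groups, and p was adjusted by Benjamini-Hochberg over the 11819 tested genes of each comparison. The model used 21 columns with 14 residual degrees of freedom, so the shared library entered it with both of its columns. Trained against untrained muscle at 0 h and the difference in recovery used 19 columns with 12 residual degrees of freedom, because the shared library cannot belong to both. Labels number the libraries within a group and nothing says that they came from separate mice, so p-values measure the spread between these libraries. Same-numbered libraries of different groups had correlations of their deviations from -0.0890 to 0.0912, so they were not treated as pairs. Ratios between members were tested by an exact permutation test. Named genes were the 3 members, up to 4 called genes of each list and direction with the largest changes (all genes of a list of under 6), and the 5 genes most like each member by Pearson r, without predicted symbols. Loci came from the GENCODE annotation of GRCm39. Promoter windows were read from RefSeq. The fit was tested on simulated data before use. Alternatives were other pseudocounts, filters, scalings, sample weights, sets of groups, a replicate block and leaving out each replicate. Python 3.11.15, pandas 2.3.3, numpy 2.4.6 and matplotlib 3.10.9 were used.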

Additional observations from a re-analysis of the deposited data

Results flagged for a closer look

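Nr4a3 at 6 h was flagged because trained and untrained muscle differed by a test of the difference itself. The log2 difference was -1.87 (limma, adjusted p = 0.00047), with 2.76, 1.34 and 1.63 TPM in the 3 trained and 6.03, 12.8 and 6.65 TPM in the 3 untrained libraries. The difference in recovery between 0 h and 6 h of the same gene was flagged for the same reason, at -2.13 (adjusted p = 0.042), a call that was lost without most single libraries. Both measures rest on the same 6 h libraries.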

How the results depend on the processing

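Under the alternatives other than leaving out each replicate in turn, 443 values kept their direction and side of the threshold, 10 lost their call and 4 changed sign. All calls of the 3 members at 0 h against sedentary muscle were kept in every alternative that gave a value. Nr4a1 in trained muscle at 6 h against sedentary lost its call with no filter (-0.69, adjusted p = 0.10), with only the groups compared (-0.69, 0.21) and with the shared library left out (-0.69, 0.062). With only the groups compared, Nr4a3 between trained and untrained muscle at 6 h (-1.87, 0.18) and Nr4a1 in trained muscle at 72 h against 6 h (1.07, 0.068) also lost theirs. The difference in recovery of Nr4a3 lost its call with a pseudocount of 0.1 (-2.35, 0.13), no filter (-2.13, 0.065), rescaling without the mitochondrial genome and the 10 highest genes (-2.17, 0.086), only the groups compared (-2.13, 0.36) and the replicate block (-2.13, 0.072). The block changed no other call of the members. Values that were not called changed sign for Nr4a1 with sample quality weights in untrained muscle at 6 h against sedentary (0.049) and with median-of-ratios scaling at 72 h (-0.0049), and for Nr4a2 with a pseudocount of 0.1 between training states at 72 h (-0.18) and with sample quality weights in untrained muscle at 72 h against 6 h (-0.17). The cause was not tested. Another scaling also moved the balance of all calls, higher against lower, in untrained muscle at 6 h against sedentary (417 and 105, 370 and 180 when rescaled), in trained muscle at 72 h against sedentary (7 and 13, 23 and 9), between training states at 72 h (7 and 22, 12 and 15), and at 72 h against 6 h in untrained (142 and 335, 217 and 327) and trained muscle (113 and 298, 200 and 274).

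When each replicate was left out in turn, the values lay from -0.34 to 0.048 for Nr4a1 in untrained muscle at 6 h against sedentary, -0.90 to -0.46 in trained muscle at 6 h and -0.085 to 0.20 in untrained muscle at 72 h. For Nr4a3 they lay from -0.27 to 0.058 in trained muscle at 72 h and from -2.37 to -1.81 for the difference in recovery. For Nr4a2 they lay from -0.90 to 0.43 between training states at 6 h and -0.51 to 0.82 at 72 h, from -0.29 to 1.04 in untrained muscle at 72 h against 6 h, and from -1.13 to 0.20 for the difference in recovery. The change of the Nr4a2 to Nr4a1 ratio lay from -2.98 to -2.35. The lower Nr4a3 in trained muscle at 6 h kept its call in all 6, from -2.11 to -1.55. A filter at a mean of 5 TPM removed Nr4a3. TPM keeps no depth, so the precision of the values under 1 TPM is unknown. The number of same-numbered pairs with a correlation over 0.1 was 0 of 52, and 6 of 19 libraries correlated best with their own number.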
